A study of Oryctolagus cuniculus with 12 samples.

Results

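The insulin-like growth factor (IGF) axis was followed in rabbit ear skin and scar through the genes of its ligands, receptors and binding proteins. The members were the rows of the expression table whose gene symbol was IGF1, IGF2, IGF1R, IGF2R, IGFBP2, IGFBP3, IGFBP4, IGFBP5, IGFBP6 or IGFBP7. Of these 10 listed genes, 6 were found by symbol among the 29587 genes of the table, namely IGF1, IGF1R, IGF2R, IGFBP4, IGFBP5 and IGFBP6, each on 1 row. No row carried the symbol of the remaining 4 members (IGF2, IGFBP2, IGFBP3 and IGFBP7), which were not analysed here. All 6 found members passed the filter on low values, a mean over the samples of at least 1 FPKM (sequenced fragments scaled to gene length and library size).

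Bulk RNA-seq of full thickness ear tissue was available for 12 samples in 4 groups, with 3 rabbits per group. All rabbits were wild-type females of 10 to 12 weeks, and tissue was harvested on day 43 after skin resection. NS was normal ear skin of untreated rabbits without scar lesions. HS was untreated hypertrophic scar, a raised and collagen-rich scar that was raised here from 4 wounds of 7 mm on the ear. In drug-loaded MNs, each lesion was covered with 1 patch of separating microneedles, whose tips carried a peptide prodrug of 5-fluorouracil. In 5-Fu injection, each lesion was injected with 0.1 mL of a solution holding 120 μg of 5-fluorouracil. Both treatments were given on days 22, 29 and 36. A group given microneedles without drug was not among these samples, so the patch and its drug cannot be told apart.

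Reads on genes, counted back from the FPKM values, ranged from 10521472 to 14043667 per sample. The 10 most abundant genes held 8.64% to 10.0% of the reads in NS and 19.8% to 24.3% in HS. Replicate 2 of the 5-Fu injection group stood apart from its group, with a COL1A1 (a chain of type I collagen) level of 9220 FPKM against 1053 and 1438 FPKM in the other replicates. Replicate 1 stood apart in other genes. The T cell gene CD2 was at 21.9 FPKM in it against 3.32 and 3.30 FPKM in replicates 2 and 3, the B cell gene CD79B at 24.2 against 1.21 and 2.14 FPKM, and the cartilage collagen gene COL2A1 at 4429 against 260 and 491 FPKM. The calls of the 5-Fu injection group are therefore also given with either sample left out. In NS, replicate 3 stood apart in muscle genes, with MYH11 at 470 FPKM against 74.6 and 53.6 FPKM in replicates 1 and 2. Markers of fibroblasts, keratinocytes, endothelial cells and cartilage were detected in every sample. The summed cartilage markers ranged from 407 to 5003 FPKM over the samples, with wide overlap of the groups. In bulk tissue, fewer cells of a type and less RNA per cell cannot be told apart.

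IGF1 is a secreted growth factor that acts on fibroblasts, keratinocytes and many other cells, and in skin it is made largely by dermal cells. It signals through the receptor tyrosine kinase IGF1R, which recruits insulin receptor substrates and activates the PI3K/AKT and RAS/MAPK cascades. IGF2R binds IGF2 for degradation and carries lysosomal enzymes tagged with mannose-6-phosphate. The IGFBPs hold IGFs in the extracellular space, and proteases that cleave them release the ligand.

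IGF1 was the member with the widest range as a fold, from 3.38 to 72.5 FPKM. In NS the 3 samples measured 4.23, 6.84 and 3.38 FPKM. In HS they measured 72.5, 54.0 and 68.0 FPKM. Every HS sample lay far above every NS sample. After drug-loaded MNs the levels were 30.6, 21.6 and 22.6 FPKM, and after 5-Fu injection they were 8.35, 23.6 and 8.21 FPKM. The group mean of IGF1 was thus 64.8 ± 9.67 FPKM in HS and 4.82 ± 1.81 FPKM in NS (SD, n = 3). It was 24.9 ± 4.90 FPKM for drug-loaded MNs and 13.4 ± 8.84 FPKM for 5-Fu injection. The means fell in the order HS, drug-loaded MNs, 5-Fu injection, NS. HS was separated from all other groups and NS likewise, whereas both treated groups overlapped because of 5-Fu injection replicate 2. Among the 13287 genes tested, the level of IGF1 moved from the 21.3 to 36.6 percentile of NS samples to the 87.1 to 90.2 percentile of HS samples. The counts behind these levels ran from 171 reads in the lowest NS sample to 3595 reads in HS. The gene (ENSOCUG00000014689) is placed by the table on the minus strand of chromosome 4, from 81676119 to 81750443, with a length of 4313 bases.

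**Figure D1:**
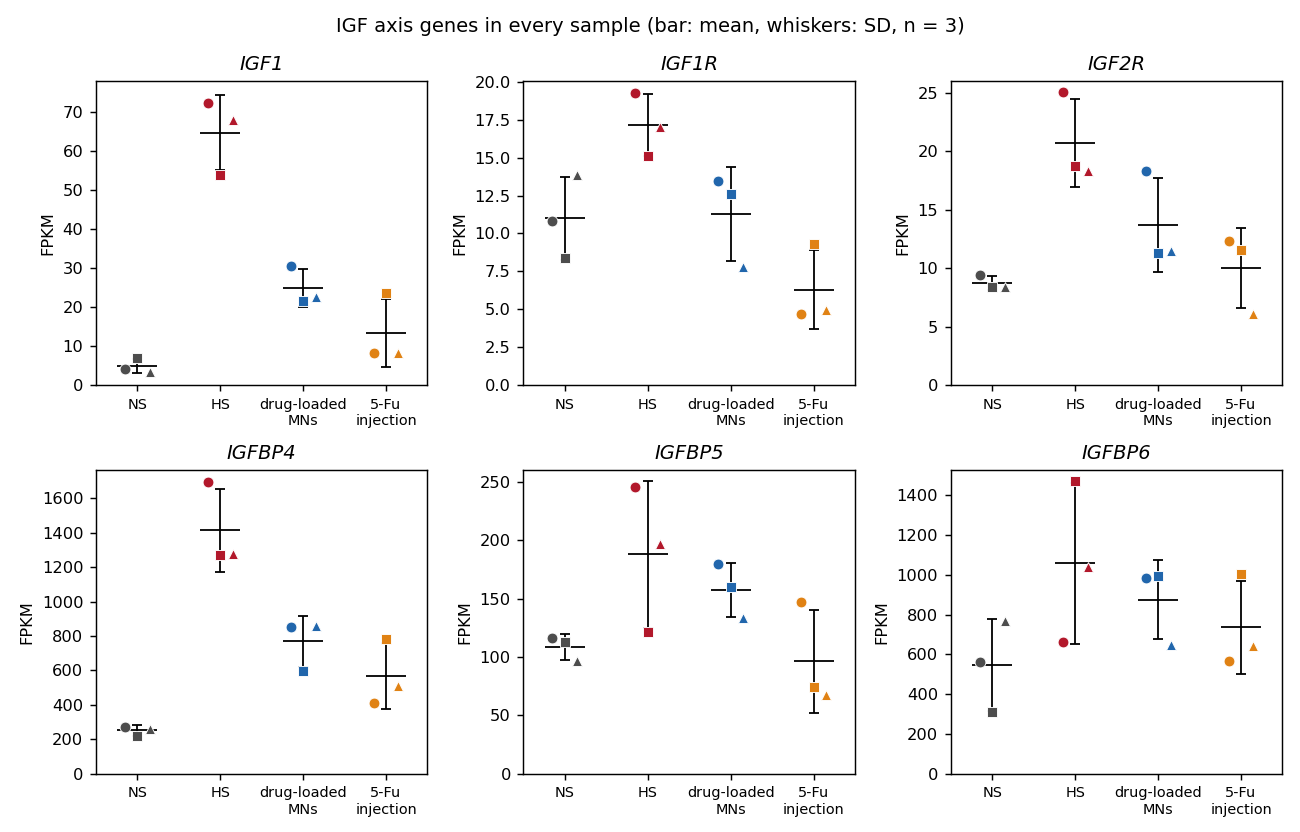
FPKM of the 6 IGF axis genes (linear vertical axes from 0) in the 4 groups. Circles, squares and triangles are replicates 1, 2 and 3, and the bar and whiskers give the mean and SD (n = 3). IGF1 lies at 54.0 to 72.5 FPKM in HS and at or below 30.6 FPKM in all other samples, while the 4 groups overlap for IGFBP6.

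The signalling receptor IGF1R varied much less than its ligand. Its levels were 10.8, 8.40 and 13.8 FPKM in NS and 19.3, 15.1 and 17.1 FPKM in HS. They were 13.5, 12.6 and 7.76 FPKM after drug-loaded MNs and 4.70, 9.27 and 4.92 FPKM after 5-Fu injection. HS was highest and did not overlap with any other group. Drug-loaded MNs (mean 11.3 ± 3.09) and NS (11.0 ± 2.73 FPKM) overlapped almost entirely, and 5-Fu injection (6.30 ± 2.58 FPKM) was lowest, with replicate 2 inside the range of NS. The gene (ENSOCUG00000014795) lies on the unplaced scaffold GL018753, plus strand, from 1410896 to 1661832, with a length of 6224 bases.

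IGF2R, the scavenging receptor, measured 9.45, 8.38 and 8.38 FPKM in NS and 25.1, 18.8 and 18.3 FPKM in HS. After drug-loaded MNs it measured 18.4, 11.3 and 11.4 FPKM, and after 5-Fu injection 12.4, 11.6 and 6.11 FPKM. NS was tight at 8.74 ± 0.619 FPKM. HS (20.7 ± 3.79) touched drug-loaded MNs (13.7 ± 4.02 FPKM) in 1 sample, and 5-Fu injection (10.0 ± 3.40 FPKM) overlapped with both NS and drug-loaded MNs. The gene (ENSOCUG00000008785) is on chromosome 12, plus strand, from 149772470 to 149863690, with a length of 9982 bases.

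Of the binding proteins, IGFBP4 followed IGF1 most closely. IGFBP4 binds both IGFs and is known mainly as an inhibitor of their action until it is cleaved. Its levels were 274, 218 and 263 FPKM in NS and 1693, 1271 and 1278 FPKM in HS. They were 854, 600 and 858 FPKM after drug-loaded MNs and 413, 784 and 509 FPKM after 5-Fu injection. The order of the groups was that of IGF1, with HS and NS each separated from the rest and an overlap between both treated groups. In HS it stood between ranks 34 and 58 of the 13287 genes, and in NS between ranks 264 and 356. The gene (ENSOCUG00000002828) is on chromosome 19, plus strand, from 41584616 to 41594406, with a length of 1087 bases.

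IGFBP5, a binding protein that attaches to extracellular matrix, measured 116, 113 and 96.4 FPKM in NS and 246, 121 and 197 FPKM in HS. It measured 179, 160 and 134 FPKM after drug-loaded MNs and 147, 74.6 and 67.4 FPKM after 5-Fu injection. HS was the most spread group, and its replicate 2 lay barely above NS. The means were 188 ± 62.7 FPKM in HS, 158 ± 22.9 for drug-loaded MNs, 109 ± 10.8 in NS and 96.4 ± 44.1 for 5-Fu injection, and of the neighbours in that order only drug-loaded MNs and NS were separated. The gene (ENSOCUG00000025513) is on chromosome 7, minus strand, from 158092549 to 158109173, with a length of 1872 bases. Its whole span of 16625 bases lies inside the span of another row on the opposite strand (ENSOCUG00000008561, chromosome 7, 158055348 to 158124797). That row has no symbol and is described as IGFBP2, so the selection by symbol left it out, and it is singled out here after its values had been seen. It measured 82.9, 77.1 and 74.5 FPKM in NS and 189, 140 and 146 FPKM in HS. After drug-loaded MNs it measured 126, 124 and 194 FPKM, and after 5-Fu injection 92.7, 150 and 116 FPKM. Whether counting used the strand is not given in the sources used here, so reads of these overlapping genes cannot be told apart, and the values of IGFBP5 are uncertain to that extent. Their levels on the log2 scale had a Pearson r of 0.37 over the 12 samples.

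IGFBP6, which prefers IGF2 to IGF1 as its ligand, measured 563, 310 and 769 FPKM in NS and 663, 1470 and 1040 FPKM in HS. It measured 985, 992 and 645 FPKM after drug-loaded MNs and 567, 1003 and 641 FPKM after 5-Fu injection. No group of IGFBP6 was separated from any other, although its mean of 1058 ± 404 FPKM was highest in HS and that of 547 ± 230 FPKM was lowest in NS. The gene (ENSOCUG00000001412) is on chromosome 4, plus strand, from 36972410 to 36975798, with a length of 726 bases.

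Scar was compared with normal skin to find which parts of the axis differ after scarring. IGF1, IGFBP4 and IGF2R rose in HS, and the other 3 members had positive differences that did not pass. A gene was called where limma on log2(FPKM + 1) gave a p under 0.05 after Benjamini-Hochberg adjustment and a log2 fold change beyond 1 in either direction. By these rules, 3 of 6 members were called higher and 0 lower, where 3.53% of all genes tested were called higher and 1.48% lower. All 6 members had positive differences, whereas 51.4% of all genes had negative ones. The samples of HS and NS did not overlap for 5 of 6 members, all higher in HS, where 18% of all genes did so. The median log2 fold change was 1.06 over the members and -0.01 over all genes.

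The increase of IGF1 in HS over NS was 3.53 ± 0.35 (log2 fold change ± SE, limma adjusted p = 0.000842), and its mean FPKM was 13.5 times that of NS. IGFBP4 rose by 2.48 ± 0.25 (limma adjusted p = 0.000842), a mean 5.63 times higher. By p, IGF1 ranked 10 and IGFBP4 ranked 12 of the 13287 genes. IGF2R rose by 1.14 ± 0.26 (limma adjusted p = 0.0225). Differences of 0.97 ± 0.38 for IGFBP6, 0.73 ± 0.31 for IGFBP5 and 0.62 ± 0.27 for IGF1R did not pass (limma adjusted p = 0.155, 0.179 and 0.199). The row described as IGFBP2 differed by 1.00 ± 0.22 (limma adjusted p = 0.0196) and was not called, as its change did not exceed 1.

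The calls of IGF1 and IGFBP4 in HS against NS held in all 12 fits that left out 1 sample. That of IGF2R was lost without NS replicate 1, 2 or 3 or HS replicate 1, 2 or 3, with log2 fold changes of 1.01 to 1.22 and limma adjusted p-values of 0.0516 to 0.0885. The FPKM are scaled between samples by size factors, and rescaling to the total reads on genes moved the median of all genes to -0.33. Relative to that median, the members differed by 3.54 (IGF1), 2.45 (IGFBP4), 1.14 (IGF2R), 0.94 (IGFBP6), 0.70 (IGFBP5) and 0.61 (IGF1R), but only 3 members were then separated between the groups. Without that correction for the median, IGF2R differed by 0.81 after rescaling and was not called, while IGF1 and IGFBP4 were.

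**Figure D2:**
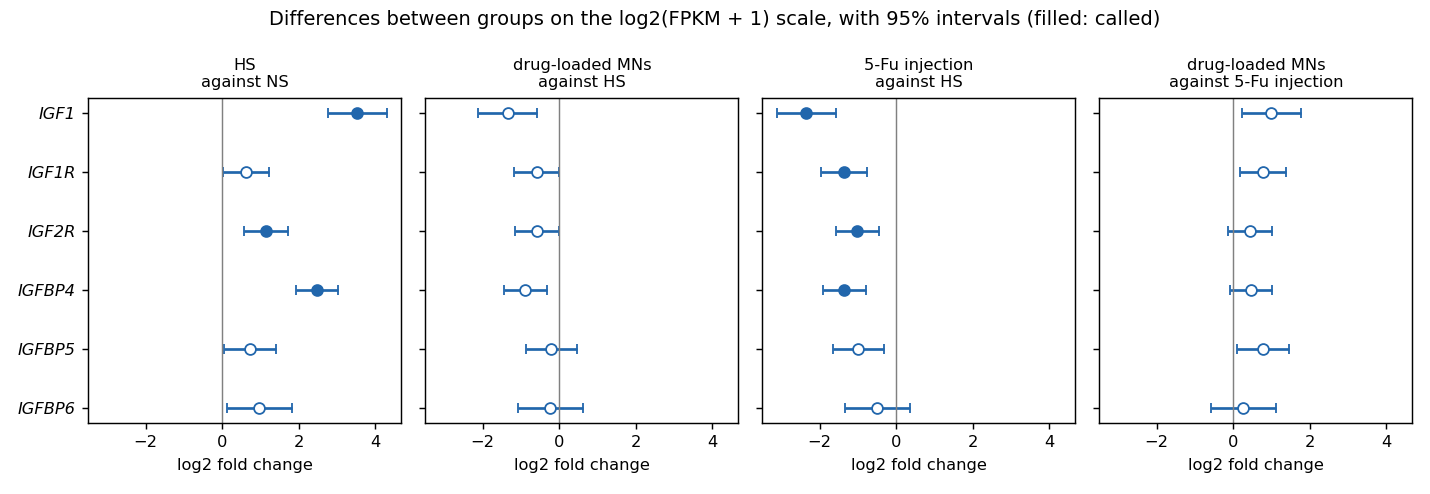
Log2 fold changes of the 6 members on the log2(FPKM + 1) scale in 4 comparisons, with 95% intervals from limma (n = 3 per group). Filled points were called (log2 fold change beyond 1 in either direction, adjusted p under 0.05). IGF1 has the largest difference of the 6 members in every panel, 3.53 in HS against NS and -2.35 in 5-Fu injection against HS.

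Drug-loaded MNs were compared with HS to see what the patch treatment changed in scar. All 6 members had lower means after treatment, where 53.2% of all genes had negative differences, and 0 of 6 were called by limma, where 1 gene of the 13287 tested (0.00753%) was called in all. At an unadjusted limma p under 0.05 there were 3 members, all lower, against 4.12% of all genes that were lower at that level. By limma voom on the reads counted back, 0 members were called and 4 had an unadjusted p under 0.05, against 1134 of all 13287 genes. IGF1 differed by -1.35 (95% interval -2.13 to -0.57, limma adjusted p = 0.280), with a mean 2.60 times lower than in HS. IGFBP4 differed by -0.88 (-1.43 to -0.33, limma adjusted p = 0.324). The treated samples of IGF1, IGF1R and IGFBP4 all lay below all HS samples, as did those of 10.3% of all genes. IGF1R and IGF2R differed by -0.59 and -0.58 (limma adjusted p = 0.566 and 0.551), and IGFBP5 and IGFBP6 by -0.20 and -0.23 with intervals that included 0. The samples of IGF1R were no longer separated after rescaling to the total reads on genes. When the fit was limited to HS and drug-loaded MNs, IGF1 was called (limma adjusted p = 0.0486).

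The injection of 5-fluorouracil was compared with the same HS samples. IGF1, IGF1R, IGFBP4 and IGF2R fell, so that 4 of 6 members were called lower and 0 higher, where 1.78% of all genes were called lower and 0.512% higher. All 6 members had negative differences, as had 48.6% of all genes. These 4 members also had no sample of the treated group inside the range of HS, as had 16.4% of all genes on the lower side. IGF1 differed by -2.35 ± 0.35 (limma adjusted p = 0.0205), with a mean 4.84 times lower than in HS. IGF1R differed by -1.36 ± 0.27 (limma adjusted p = 0.0290) and IGFBP4 by -1.35 ± 0.25 (limma adjusted p = 0.0271). IGF2R was near the threshold, at -1.02 ± 0.26 (limma adjusted p = 0.0493), and was called in only 2 of 9 other settings that kept all samples. IGFBP5 differed by -0.99 ± 0.31 and IGFBP6 by -0.49 ± 0.38, and neither passed (limma adjusted p = 0.0819 and 0.443).

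Without 5-Fu injection replicate 2 the same comparison gave -2.82 for IGF1, -1.64 for IGF1R, -1.61 for IGFBP4 and -1.14 for IGF2R. These 4 members were called, where 500 of all 13287 genes were called lower. IGFBP5 and IGFBP6 then differed by -0.85 and -0.74, and neither was called. Without replicate 1, 0 members and 16 of all 13287 genes were called. The differences were then -2.12 for IGF1, -1.21 for IGF1R, -1.15 for IGFBP4 and -1.19 for IGF2R. With HS replicate 1, 2 or 3 or 5-Fu injection replicate 3 left out, 0 members were called likewise. Over all genes, 9, 0, 0 and 12 were called in these fits, in that order. Of the 12 fits that left out 1 sample, IGF2R was called in 2. In the 5 fits with 0 members called, the differences of IGF1 were -2.11 to -2.47, with limma adjusted p-values of 0.0544 to 0.0869. When the fit was limited to HS and 5-Fu injection, 0 members were called (limma adjusted p = 0.0968 for IGF1), and with no filter on low values only IGF1 was. These settings called 0 and 93 genes in all.

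Both treatments were set against each other directly, since each was compared with the same HS samples above. All 6 members were higher in mean after drug-loaded MNs than after 5-Fu injection, where 49.7% of all genes were lower, but 0 of 6 passed, and limma called 0 genes (0%) of the 13287 tested. The count at an unadjusted limma p under 0.05 was 3 members, against 8.15% of all genes that were higher at that level, and limma voom called 0 members. IGF1 differed by 1.00 (95% interval 0.22 to 1.78, limma adjusted p = 0.275). IGF1R differed by 0.77 (0.18 to 1.37, limma adjusted p = 0.272) and IGFBP5 by 0.78 (0.11 to 1.46, limma adjusted p = 0.295). The intervals of IGFBP4 (-0.08 to 1.02), IGF2R (-0.13 to 1.00) and IGFBP6 (-0.58 to 1.11) included 0. All 6 members overlapped between both groups, whereas 17.1% of all genes did not. Without 5-Fu injection replicate 2, the difference of IGF1 was 1.47 (limma adjusted p = 0.0627) and that of IGF1R was 1.05 (limma adjusted p = 0.118). Without replicate 1, 0 members were called and 1 had an unadjusted limma p under 0.05, against 2416 of the 13287 genes. Without replicate 3, 0 members were called and 0 were at that level, against 1237 genes. Over the 12 fits that left out 1 sample, the difference of IGF1 was 0.76 to 1.47.

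Treated scars were also compared with NS, the samples already used as the reference for HS. IGF1 and IGFBP4 were still higher than in NS after drug-loaded MNs, by 2.19 ± 0.35 and 1.60 ± 0.25 (limma adjusted p = 0.0232 and 0.0219). These were 2 of 6 members, where 0.79% of all genes were called higher. The samples of 4 members lay above all NS samples (11.5% of all genes), whereas IGF1R differed by 0.02 ± 0.27. Leaving out NS replicate 1 or 2 or drug-loaded MNs replicate 1 or 3 ended both calls, and leaving out NS replicate 3 or drug-loaded MNs replicate 2 ended that of IGF1, with log2 fold changes of 2.00 to 2.42 for IGF1 and 1.50 to 1.67 for IGFBP4. Over all genes, 6, 0, 14 and 4 were called in the fits that ended both. In those that ended the call of IGF1 alone, 113 and 24 were called.

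After 5-Fu injection, 0 of 6 members were called against NS (0.00753% of all genes were called), with 3 members at an unadjusted limma p under 0.05 (14.9% of all genes) and 0 members called by limma voom. IGF1 and IGFBP4 differed by 1.19 ± 0.35 and 1.13 ± 0.25 (limma adjusted p = 0.205 and 0.137), and their samples lay above all NS samples, as did those of 9.6% of all genes. IGF1R differed in the other direction, by -0.75 ± 0.27 (limma adjusted p = 0.259). IGFBP5 differed by -0.26 ± 0.31, IGF2R by 0.13 ± 0.26 and IGFBP6 by 0.48 ± 0.38. Without 5-Fu injection replicate 2, the difference of IGF1 was 0.72, that of IGFBP4 was 0.87 and that of IGF1R was -1.02, and limma called 0 of 6. Without replicate 1, limma likewise called 0 of 6, and 3 members had an unadjusted limma p under 0.05, against 2253 of the 13287 genes. Over the 12 fits that left out 1 sample, the difference of IGF1 was 0.72 to 1.43.

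Ratios within a sample do not depend on how samples are scaled to each other. IGF1 over IGF1R, both in FPKM, was 0.244 to 0.815 in NS and 3.57 to 3.99 in HS. It was 1.71 to 2.92 after drug-loaded MNs and 1.67 to 2.54 after 5-Fu injection, where replicate 2 gave the highest value and the others were at most 1.77. NS and HS were thus each separated from the treated groups, which overlapped with each other. IGF1R was the more abundant mRNA of the pair in all NS samples, and IGF1 in all scar samples. With 3 samples against 3, an exact two-sided permutation test cannot give a p below 0.1, so these ratios are given as ranges.

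The summed level of IGFBP4, IGFBP5 and IGFBP6 was 641 to 1128 FPKM in NS, 2515 to 2863 FPKM in HS, 1637 to 2018 FPKM after drug-loaded MNs and 1127 to 1862 FPKM after 5-Fu injection. Relative to IGF1, this sum was lowest in HS, at 35.9 to 53.0 times the IGF1 level. It was 93.7 to 334 times in NS, 66.0 to 81.0 times after drug-loaded MNs and 78.9 to 148 times after 5-Fu injection, with 78.9 in replicate 2 and at least 135 in the others. The summed mRNA of these 3 binding proteins therefore exceeded that of IGF1 in every sample, by the smallest factor in HS. IGF2 and the other binding proteins are not part of this ratio. IGFBP4 made up 23.3% to 34.0% of the sum in NS and 44.4% to 65.1% in HS. IGFBP6 made up 48.3% to 68.2% in NS and 25.5% to 51.4% in HS. IGFBP5 never made up more than 17.7%. After drug-loaded MNs the share of IGFBP4 was 34.2% to 52.4% and after 5-Fu injection it was 36.6% to 42.1%.

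**Figure D3:**
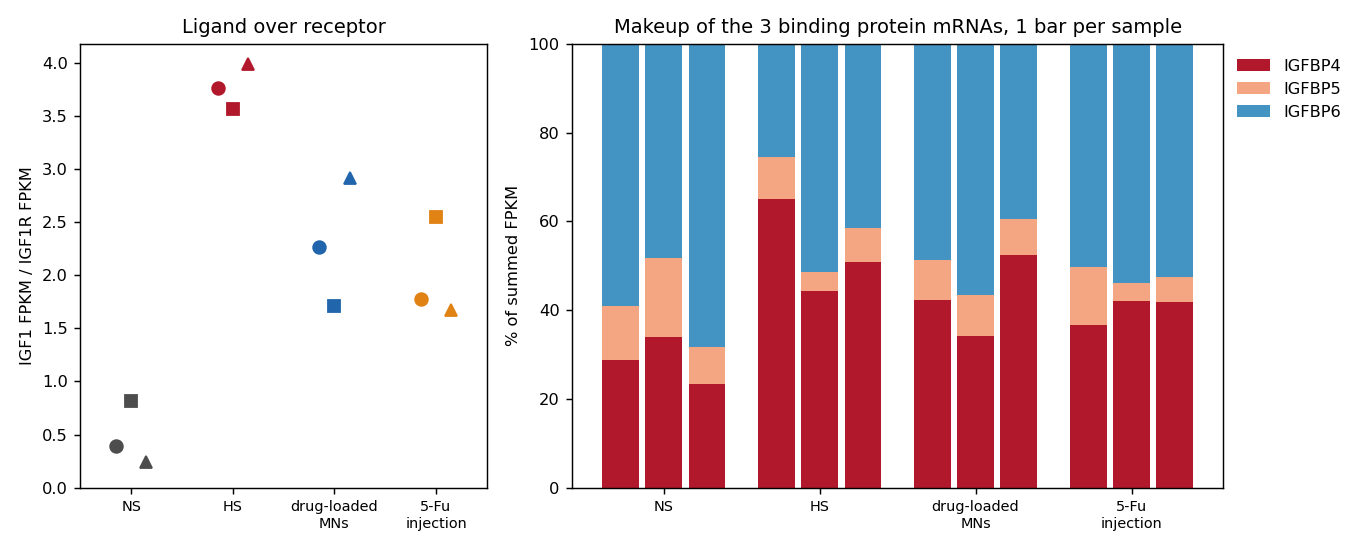
Left, IGF1 FPKM over IGF1R FPKM in each sample, with circles, squares and triangles for replicates 1, 2 and 3. Right, the percent of the summed FPKM of IGFBP4, IGFBP5 and IGFBP6 that each contributes, 1 bar per sample in replicate order. The left ratio is 3.57 to 3.99 in HS and at most 0.815 in NS, and the share of IGFBP4 is 44.4% to 65.1% in HS.

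Enzymes and inhibitors that set the cleavage of IGFBPs were examined next. Of 9 listed genes, 8 were in the table and 5 passed the filter, and limma called 4 of these 5 higher in HS against NS, where 3.53% of all genes were called higher. ADAM12, a metalloprotease that cleaves IGFBP3 and IGFBP5, was at 0.567, 0.311 and 1.57 FPKM in NS and 79.0, 49.9 and 53.9 FPKM in HS (log2 fold change 5.12 ± 0.60, limma adjusted p = 0.0013). It was at 35.4, 19.1 and 16.1 FPKM after drug-loaded MNs and at 1.86, 17.6 and 2.56 FPKM after 5-Fu injection. HTRA1, a serine protease with IGFBP5 among its substrates, was at 375 to 543 FPKM in NS and 1789 to 4239 FPKM in HS (2.44 ± 0.40, limma adjusted p = 0.00544). ADAM9, another metalloprotease that cleaves IGFBP5, rose from 16.4 to 23.5 FPKM in NS to 48.3 to 65.0 FPKM in HS (1.38 ± 0.22, limma adjusted p = 0.0045). STC1, an inhibitor of the IGFBP4 protease PAPPA, also rose, from 1.03 to 2.29 FPKM to 3.90 to 21.3 FPKM (2.01 ± 0.50, limma adjusted p = 0.0338). limma voom called 3 of the 5. The list therefore held both proteases and an inhibitor among the genes that rose, and its median log2 fold change was 2.01 against -0.01 for all genes.

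The call of STC1 was the least stable of the 4. It was lost without NS replicate 1, 2 or 3 or HS replicate 1 or 3 (1.48 to 2.16, limma adjusted p = 0.0526 to 0.125) and by limma voom (limma adjusted p = 0.0742), as well as with no filter (0.0650) and with only HS and NS in the fit (0.0708). STC2, a related inhibitor, differed by -0.82 ± 0.44 (limma adjusted p = 0.302), with 2.66 to 9.68 FPKM in NS and 1.98 to 3.20 FPKM in HS. PAPPA itself, the protease that cleaves IGFBP4 when IGF is bound, fell below the filter. Its level was 0.224 to 0.310 FPKM in NS, 0.976 to 2.14 FPKM in HS, 0.556 to 1.51 FPKM after drug-loaded MNs and 0.218 to 0.689 FPKM after 5-Fu injection. PAPPA2, a related protease, was at 0.890 to 0.901 FPKM in NS and at 0.386 to 0.425 FPKM in HS, with 0.241 to 0.532 FPKM after drug-loaded MNs and 0.155 to 0.248 FPKM after 5-Fu injection. ADAM28 was at 0 in 9 samples and at most 0.0953 FPKM, and CTSD was not analysed here. PAPPA and PAPPA2 thus had non-overlapping ranges in HS and NS, in opposite directions, at levels too low for the test. Of all genes tested, 18% were separated in the same way on the higher side alone.

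In the treated scars these genes lay mostly between HS and NS. HTRA1 measured 1282 to 1832 FPKM after drug-loaded MNs and 605 to 1708 FPKM after 5-Fu injection. ADAM9 measured 33.5 to 49.9 and 23.2 to 36.3 FPKM, and STC1 4.22 to 9.62 and 2.90 to 6.92 FPKM, in the same order of groups. STC2 measured 3.42 to 3.81 and 1.63 to 8.03 FPKM. After 5-Fu injection, ADAM12 fell against HS by 3.40 on the log2 scale (SE 0.60, limma adjusted p = 0.0258), and limma called none of the other 4 tested genes of the list, whereas limma voom also called ADAM9 (-1.01, limma adjusted p = 0.0326). Without 5-Fu injection replicate 2, ADAM12 differed by -4.25, HTRA1 by -1.69 and ADAM9 by -1.17. All 3 were called, where 500 of all 13287 genes were called lower. ADAM9 differed by -0.98 ± 0.22 (limma adjusted p = 0.0372), short of the fold change threshold, and HTRA1 by -1.30 ± 0.40 (limma adjusted p = 0.0803). After drug-loaded MNs, 0 of the 5 were called against HS by limma and 0 by limma voom. At an unadjusted limma p under 0.05 there were 2, against 1183 of all 13287 genes. The 2 were ADAM12 at -1.39 ± 0.60 (limma adjusted p = 0.537) and ADAM9 at -0.485 ± 0.217 (limma adjusted p = 0.556). HTRA1, at -0.65 ± 0.40 (limma adjusted p = 0.663), was not among them. ADAM12 was still higher than in NS after drug-loaded MNs (3.74 ± 0.60, limma adjusted p = 0.0232), a call lost without NS replicate 1 or 2 or drug-loaded MNs replicate 1, 2 or 3 (3.42 to 3.96). Leaving out HS replicate 1, 2 or 3 or 5-Fu injection replicate 1 or 3 ended the call of ADAM12 in 5-Fu injection against HS, at -2.90 to -3.53.

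**Figure D4:**
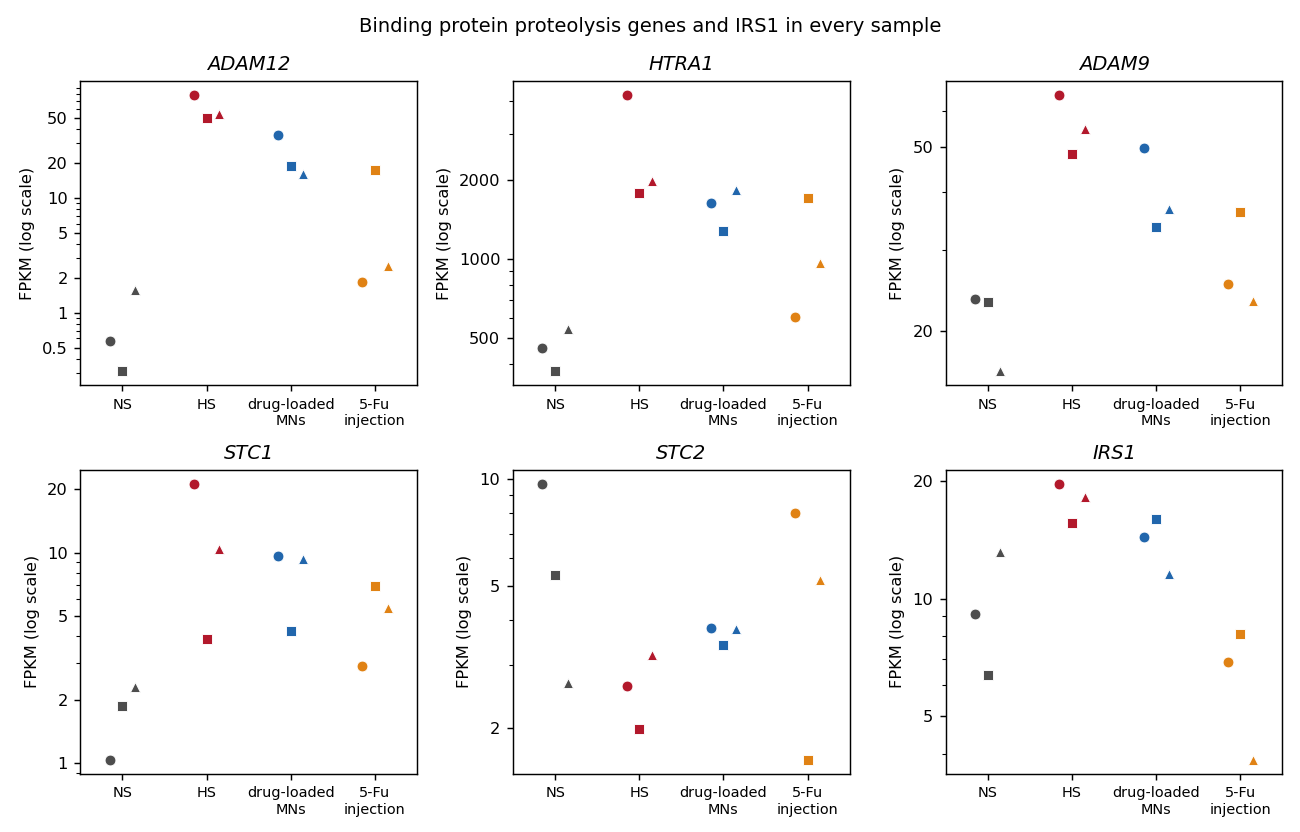
FPKM on log axes of ADAM12, HTRA1, ADAM9, STC1, STC2 and the adaptor IRS1 in the 12 samples, with circles, squares and triangles for replicates 1, 2 and 3. ADAM12 is at 49.9 to 79.0 FPKM in HS and at most 1.57 FPKM in NS, and the 5-Fu injection samples of IRS1 (3.86 to 8.10 FPKM) lie below all HS samples.

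Other genes of the wider family showed no called change in any of the 6 comparisons. Of 11 listed, 9 were in the table and 5 passed the filter. Over all comparisons, which share samples, 6 of 30 tests of limma had an unadjusted p under 0.05, and limma voom called 0. In HS against NS and in 5-Fu injection against HS there were 2 of 5 each, against 3109 and 3449 of all 13287 genes. INSR, the insulin receptor, measured 6.61 to 8.11 FPKM in NS and 5.68 to 6.77 FPKM in HS, and GHR, the growth hormone receptor, 9.00 to 15.4 and 7.26 to 9.24 FPKM. In the treated groups INSR lay at 4.26 to 7.50 FPKM and GHR at 7.23 to 11.7 FPKM. IGF2BP1, an mRNA-binding protein with IGF2 mRNA among its targets, was at 0 in all NS samples and at 11.1, 1.23 and 1.24 FPKM in HS (limma adjusted p = 0.0675). It was at 0.289 to 1.62 FPKM after drug-loaded MNs. Replicate 2 of 5-Fu injection had 1.02 FPKM, and the other replicates were at 0. Its relatives IGF2BP2 and IGF2BP3 measured 1.67 to 2.61 and 1.13 to 4.43 FPKM in HS, against 1.56 to 2.01 and 0.436 to 0.983 FPKM in NS, and at most 1.73 and 0.907 FPKM in the treated groups. INSRR stayed at or below 0.131 FPKM and IGFBPL1 at or below 0.0602 FPKM, and IGFBP1 and INS were listed at 0 in all 12 samples. IGFALS and GH1 were not analysed here.

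Of the signalling genes downstream of IGF1R, 1 was called in 1 comparison. Of 30 listed genes of the PI3K/AKT branch, 20 were tested, and limma and limma voom called 0 in HS against NS or in drug-loaded MNs against HS. At an unadjusted limma p under 0.05 there were 7 and 2, against 3109 and 1183 of all 13287 genes. Their median log2 fold change in HS against NS was 0.01. In 5-Fu injection against HS, 1 of the 20 was called, IRS1, the adaptor that IGF1R phosphorylates. Its levels were 9.13, 6.38 and 13.2 FPKM in NS and 19.7, 15.6 and 18.2 FPKM in HS. They were 14.4, 16.0 and 11.5 FPKM after drug-loaded MNs and 6.88, 8.10 and 3.86 FPKM after 5-Fu injection. IRS1 was lower in all 3 injected samples than in any HS sample, with a log2 fold change of -1.41 ± 0.27 (limma adjusted p = 0.0272), and the call was lost without HS replicate 1, 2 or 3 or 5-Fu injection replicate 1 or 3 (-1.15 to -1.50). Without 5-Fu injection replicate 2 it differed by -1.60 and was called. Of 20 listed genes of the RAS/MAPK branch, 18 were tested, and limma and limma voom called 0 in any of the 6 comparisons. At an unadjusted limma p under 0.05 there were 2 of 18 in HS against NS, against 3109 of all 13287 genes. In 5-Fu injection against HS there were 9 of 18, against 3449 of 13287. Over the 6 comparisons, which share samples, 22 of 108 tests were at that level. The median log2 fold change was 0.12 in HS against NS and -0.20 in 5-Fu injection against HS. These are mRNA levels, and phosphorylation of the proteins was not measured here.

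Most fibroblast markers moved with the members. Of 6 listed markers 5 were in the table, and 4 of these (COL1A1, COL1A2, DCN and LUM) rose in HS against NS, where 3.53% of all genes were called higher. DPT, the other marker tested, differed by 0.89 ± 0.39 in HS against NS (limma adjusted p = 0.195). In drug-loaded MNs against HS it differed by 0.18 ± 0.39, while the other 4 were lower. The summed level of the 5 markers came mostly from COL1A1 and COL1A2. It was 2041 to 2683 FPKM in NS, 29940 to 39660 FPKM in HS, 14980 to 20560 FPKM after drug-loaded MNs and 3712 to 22080 FPKM after 5-Fu injection. COL1A1 and LUM fell in 5-Fu injection against HS. The calls in 5-Fu injection against HS were lost in most fits that left out a sample, with log2 fold changes of -2.09 to -2.83 for COL1A1 and -1.48 to -2.24 for LUM. Without 5-Fu injection replicate 2 they differed by -3.65 and -2.85, and both were called, where 500 of all 13287 genes were called lower. The part of these markers in the member results was not tested. Among the other lists, POSTN, of the myofibroblast list, rose in HS, while KRT5, a basal keratinocyte keratin, fell. ACTA2, the other tested gene of the myofibroblast list, was not called. It was at 181, 174 and 806 FPKM in NS and at 393, 204 and 216 FPKM in HS. NS replicates 1 and 2 lay below all HS samples, and NS replicate 3, which stood apart in muscle genes, lay above them. Of 4 Schwann cell markers, all had negative differences in HS against NS. limma called 2 of them lower, where 1.48% of all genes were called lower. In drug-loaded MNs against NS, 1 of the 4 was called lower. The summed keratinocyte markers were at 2093 to 3622 FPKM in NS and at 1266 to 1862 FPKM in HS. They were at 3580 to 8424 FPKM for drug-loaded MNs and at 2701 to 5284 FPKM for 5-Fu injection. The sums of both treated groups, mostly KRT1 and KRT10, lay above HS without overlap. limma and limma voom called 0 of the 4 markers in either comparison with HS. At an unadjusted limma p under 0.05 there were 3 and 2, against 1183 and 3449 of all 13287 genes. TP63 overlapped with HS in both treated groups, as did KRT10 after 5-Fu injection, whereas KRT1 and KRT5 did not. The part of these markers in the comparisons with HS was not tested either. Of the endothelial and macrophage markers, limma called 0 of 4 and 0 of 5 in HS against NS. At an unadjusted limma p under 0.05 there were 0 and 3 in that comparison, against 3109 of all 13287 genes, and limma voom called 0 and 1. In 5-Fu injection against HS, limma and limma voom called 0 of either list. There, 1 endothelial marker (PECAM1, 0.54 ± 0.15) and 2 macrophage markers had an unadjusted limma p under 0.05, against 3449 of all 13287 genes. Both macrophage markers (CD163 and MRC1) were lower, while 2 of the 5 in that list had positive differences. In drug-loaded MNs against HS, the markers called and those at that level numbered 0 in both lists.

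Set against fibroblast genes, IGF1 gave different pictures with different references. IGF1 over DCN (decorin, a small proteoglycan of dermal fibroblasts) was 0.00635 to 0.0148 in NS and 0.0309 to 0.0448 in HS, without overlap. It was 0.0177 to 0.0234 after drug-loaded MNs and 0.0103 to 0.0203 after 5-Fu injection. IGF1 over LUM (lumican, another matrix proteoglycan) was 0.0220 to 0.0582 in NS and 0.0166 to 0.0245 in HS, which overlapped. It was 0.0135 to 0.0148 after drug-loaded MNs and 0.0112 to 0.0265 after 5-Fu injection, a range that spanned that of HS. IGF1 was therefore higher in HS relative to DCN but not relative to LUM. Per PECAM1, an endothelial gene, it was 0.0418 to 0.0845 in NS and 0.807 to 0.895 in HS. IGFBP4 over DCN was 0.443 to 0.494 in NS and 0.728 to 1.05 in HS. After drug-loaded MNs it was 0.490 to 0.887 and after 5-Fu injection 0.507 to 1.05, and both ranges overlapped with HS.

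**Figure D5:**
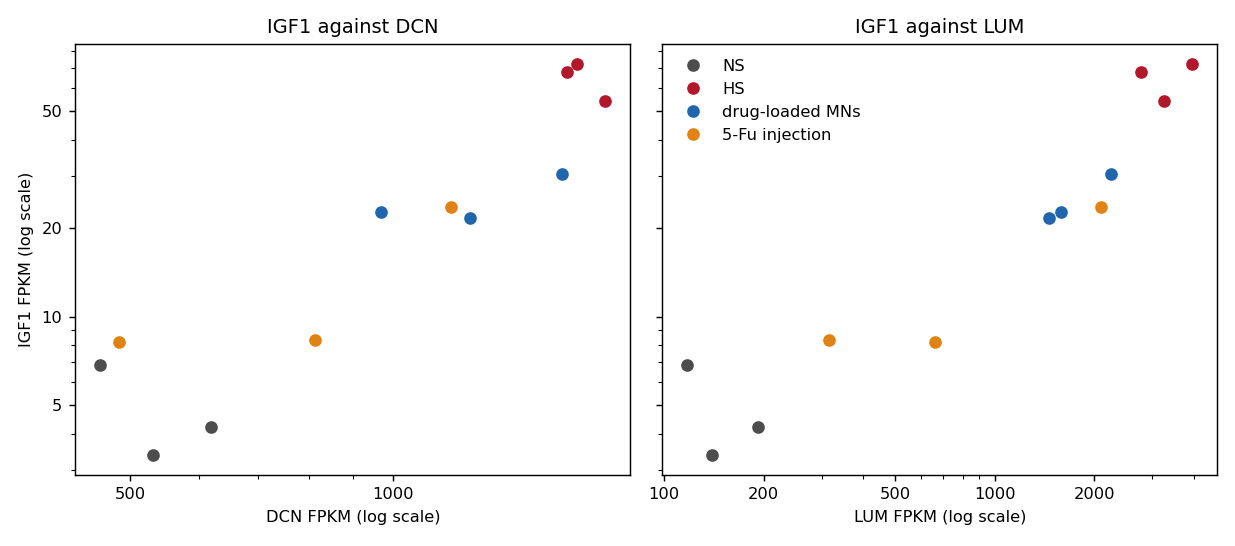
IGF1 FPKM against DCN FPKM (left) and LUM FPKM (right), log axes, 1 point per sample in 4 groups. The 3 HS samples are highest for all 3 genes, with drug-loaded MNs replicate 1 (1559 FPKM of DCN) close to the lowest of them (1578 FPKM), and the 5-Fu injection sample with 23.6 FPKM of IGF1 lies beside the drug-loaded MNs samples.

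The genes whose levels ran most like those of each member were taken as a description over the 12 samples, which share the 4 groups and the scaling of the libraries. For IGF1 they were the collagen genes COL5A2 (Pearson r = 0.99) and COL12A1 (0.98) and the elastic fibre gene EMILIN1 (0.98). For IGFBP4 they were SPON1 (0.99), TXNDC5 (0.99) and again EMILIN1 (0.98). IGF2R ran closest to FBXL7, SEL1L and SLC2A13 (0.97, 0.97 and 0.96), and IGF1R to PJA2, PRKAR2A and SLC17A5 (0.98, 0.97 and 0.96). IGFBP6 ran closest to SNCAIP, WNT5B and DENND2A (0.95, 0.93 and 0.93), and IGFBP5 to FMN1, MPDZ and SNX13 (0.91 each). Between members, r was highest for IGF1 with IGFBP4 (0.96) and for IGF1 with IGF2R (0.86), and lowest for IGFBP5 with IGFBP6 (0.12).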

How the data were processed

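Bulk RNA-seq of 12 samples was analysed, grouped by their labels. Per the study's methods, mRNA was purified with poly-T beads and sequenced on an Illumina instrument. The authors deposited 1 table of FPKM per gene. The aligner, counting tool, genome build and strand setting are not given in the sources used here, and coordinates are those of the table. Multiplied by gene length, 100% of the values were whole multiples of a step per sample (tolerance 0.01), which gave the reads on genes. The library size inside the FPKM followed median-of-ratios size factors, and was 1.12 to 1.20 times the summed gene reads for NS and 0.873 to 0.932 times for HS. Differential expression was tested by the authors with DESeq2 from counts. The table holds FPKM, so limma took its place here. No sequences are shown, since the reference used here held none.

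Groups were compared with limma 3.58.1 in R 4.3.3, in 1 model of the 4 groups on log2(FPKM + 1), a pseudocount of 1 that understates changes of low genes. The prior variance followed a trend with the mean level, and p-values were adjusted by Benjamini-Hochberg over the 13287 genes that averaged 1 FPKM or more. Calls needed an adjusted p under 0.05 together with a log2 fold change beyond 1 in either direction. The procedure was tested on simulated data. Samples were treated as coming from different rabbits, since the study had 3 rabbits per group and describes its samples as biologically independent. The spread is that between samples. Members and gene lists were chosen with earlier results of these data known. Genes named are the members, every gene of the proteolysis and wider family lists, up to 4 called genes of each other list, and the 3 genes of highest Pearson r with each member. Some marker genes are named beside these, and the called Schwann cell markers are given as counts only. The settings tried in addition were a pseudocount of 0.1, other filters, quantile normalization, rescaling to total reads, only the groups compared, no trend, the replicate number as a block, limma voom on the reads, adjusted p alone and leaving out each sample. Python 3.11.15, pandas 2.3.3, numpy 2.4.6 and matplotlib 3.10.9 were used for tables and plots.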

Additional observations from a re-analysis of the deposited data

How the results depend on the processing

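The count of called members was 3 in HS against NS under every setting that kept all samples except rescaling to the total reads, which gave 2. In drug-loaded MNs against HS it rose from 0 to 1, and that of all genes from 1 to 37, when only these groups were fitted. In 5-Fu injection against HS it went from 4 to 1 with no filter on low values and to 0 with only these groups fitted, and to between 0 and 4 when 1 sample was left out. With a pseudocount of 0.1, quantile normalization, rescaling to the total reads or no trend it was 3, as IGF2R lost its call. In drug-loaded MNs against NS it lay between 0 and 2 when 1 sample was left out. Over all genes, 665 calls in HS against NS became 382 to 749 with 1 sample left out, and 116 in drug-loaded MNs against NS became 0 to 176. The calls in 5-Fu injection against HS numbered 304, against 93 with no filter, 0 with only these groups fitted, 0 to 803 with 1 sample left out and 585 by adjusted p alone. In HS against NS, 469 higher and 196 lower calls became 311 and 748 after rescaling to total reads, and in 5-Fu injection against HS 68 higher and 236 lower became 125 and 160. In drug-loaded MNs against NS, 105 higher and 11 lower became 66 and 20, and the calls numbered 51 with no filter.

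The replicate number is shared between groups of different rabbits, and correlations of deviations between same-numbered samples ran from -0.27 to 0.44, so it was not treated as a pairing. With the replicate block, IGF1R, IGFBP4 and IGF2R lost their call in 5-Fu injection against HS, as did IGF1 and IGFBP4 in drug-loaded MNs against NS. The count of called members was then 1 in 5-Fu injection against HS (99 genes in all) and 0 in drug-loaded MNs against NS (23 genes), and it was unchanged in the other comparisons. 

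Of 432 member values with 1 sample left out, 385 kept their direction and side of the threshold, and of 324 under the other settings 304 did. Directions that reversed belonged to small differences. IGF1R in drug-loaded MNs against NS became -0.17 after rescaling (relative to the median of all genes 0.02) and lay between -0.14 and 0.25 with 1 sample left out. IGF2R in 5-Fu injection against NS became -0.079 after rescaling and lay between -0.041 and 0.41. IGFBP5 and IGFBP6 in drug-loaded MNs against HS reached 0.018 without HS replicate 1 and 0.045 without HS replicate 2, from ranges that began at -0.49 and -0.53. The cause was not tested. Depth was not limiting for the members, which held 171 reads or more in each sample, whereas PAPPA, PAPPA2 and the IGF2BP genes lay near the filter.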
